A study of Homo sapiens with 8 samples.

Results

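The genes described here encode the JUN and FOS proteins and close partners that together form the transcription factor AP-1: JUN, JUNB, JUND, FOS, FOSB, FOSL1, FOSL2, ATF2, ATF7 and MAFF. They were chosen by name, and all 10 were found by Ensembl identifier among the 58787 rows of the deposited count table. Polyadenylated RNA was counted per gene in IMR32, an established human neuroblastoma line with amplified MYCN, labelled as wild type in genotype. One group received CR31B, a rocaglate that clamps the RNA helicase eIF4A on RNA and so blocks translation initiation, at a dose given as its IC50 (4 libraries). The other received the vehicle, DMSO at 0.1% (4 libraries), and both were collected 6 h after addition, following 48 h of adherence. Only 1 cell line and 1 time were sampled, and the series title places the experiment within a study of the eIF4A-controlled programme of MYCN-driven tumours.

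AP-1 is a dimer of basic leucine zipper (bZIP) proteins. JUN proteins pair with each other, with FOS proteins or with ATF proteins, whereas FOS proteins need a JUN partner; dimers bind the TRE, a short palindrome, or the longer CRE. Most of these genes are early response genes: their mRNAs are short-lived, rise within minutes of growth factor or stress signals through MAP kinases, and fall again, and JUN can act on its own promoter. ATF2, ATF7 and JUND are more steadily expressed. Small MAF proteins such as MAFF lack an activation domain and pair with other bZIP proteins.

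Total counts ranged from 43687828 to 64715535 per library. All 10 neuroblast markers examined were detected in every library, from 1.77 CPM (TH) to 2970 CPM (MYCN), where CPM is the usual counts-per-million unit after TMM scaling. Of 16 markers of Schwann, mesenchymal, blood, endothelial and epithelial cells, SOX10, PRRX1 and CD3E were at 0 in all libraries, while COL1A1 (16.6 to 30.6 CPM) and FN1 (18.1 to 31.6 CPM) were present. In the single-end libraries the summed markers of Schwann cells were at 3.7 to 4.37 CPM with CR31B and 6.4 to 8.5 CPM with DMSO, those of endothelial cells at 1.26 to 1.52 and 2.15 to 2.55 CPM, those of blood cells at 0.311 to 0.648 and 0.755 to 1.07 CPM, and those of neuroblasts at 6300 to 6940 and 5180 to 5450 CPM. Epithelial sums were at 0.0448 to 0.0863 and 0.129 to 0.253 CPM, and mesenchymal sums overlapped, at 42.3 to 62.9 and 43.6 to 53.5 CPM. All these sums but the mesenchymal one moved with the group, and their part in the results was not tested. Pair 1 was sequenced paired-end and pairs 2 to 4 single-end. The pair 1 libraries stood apart in that their difference ran against that of the other pairs. By the mean chi-square per gene between libraries, in which lower is more alike, the pair 1 library labelled CR31B lay at 9.38 to 16.9 from DMSO replicates 2 to 4 and at 95.1 to 143 from CR31B replicates 2 to 4. Its partner labelled DMSO lay at 8.37 to 21.1 from CR31B replicates 2 to 4 and at 91.5 to 111 from DMSO replicates 2 to 4. The labels were kept as given, and whether those of pair 1 are right was not tested, which bears on every value that uses pair 1. For that reason calls among the members are given for the 8 libraries as labelled and for the 6 single-end libraries. Their levels in pair 1 are shown by themselves. Lists of related genes were counted in the single-end libraries, with pair 1 differences given for the genes of largest change. In such bulk RNA fewer cells of a kind and less RNA per cell cannot be told apart, and CPM is a share of the counted mRNA.

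In the single-end libraries 4 of the 10 genes rose with CR31B: JUN 3.71-fold, FOSL2 3.16-fold, JUNB 2.03-fold and ATF7 1.52-fold, as ratios of mean CPM. None fell by edgeR, DESeq2 or limma voom (0 members, also at an unadjusted p under 0.05 with the scaling of each used here). FOSB was under that unadjusted level in edgeR with upper quartile scaling (-0.72, adjusted p 0.0852) and with total counts (-0.71, adjusted p 0.0939). It also was without CR31B replicate 2 (-0.88, adjusted p 0.0828) and without DMSO replicate 3 (-0.80, adjusted p 0.103). ATF2 was so with a replicate block plus GC and length offsets (-0.10, edgeR adjusted p 0.0728). JUND, FOS, FOSB, ATF2 and MAFF did not pass the test, and FOSL1, with 0 to 4 counts per library, was too low to be tested. The threshold was an adjusted p of 0.05 (edgeR quasi-likelihood test, Benjamini-Hochberg over all genes tested). Over all 16696 genes tested 41.3% passed it, 23.8% higher and 17.6% lower, so 4 of 9 tested is close to that background. The share of calls that were higher was 57.5% with TMM scaling, 40.0% with upper quartile scaling and 43.1% with total counts. Rises of at least 2-fold on the fitted scale were found for JUN, FOSL2 and JUNB, and for 1.99% of all genes tested.

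As labelled, with all 8 libraries and sequencing layout as a covariate, 0 of the 9 tested members and 0 of 16518 genes (0%) passed in edgeR. DESeq2 and limma voom also called 0. At an unadjusted p under 0.05 edgeR had 0 members and 205 genes, DESeq2 263 genes and limma voom 219 genes. With no expression filter JUN and FOSL2 were under that level in edgeR (unadjusted p 0.0344 and 0.0414, adjusted p 0.763 for each).

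**Figure D1:**
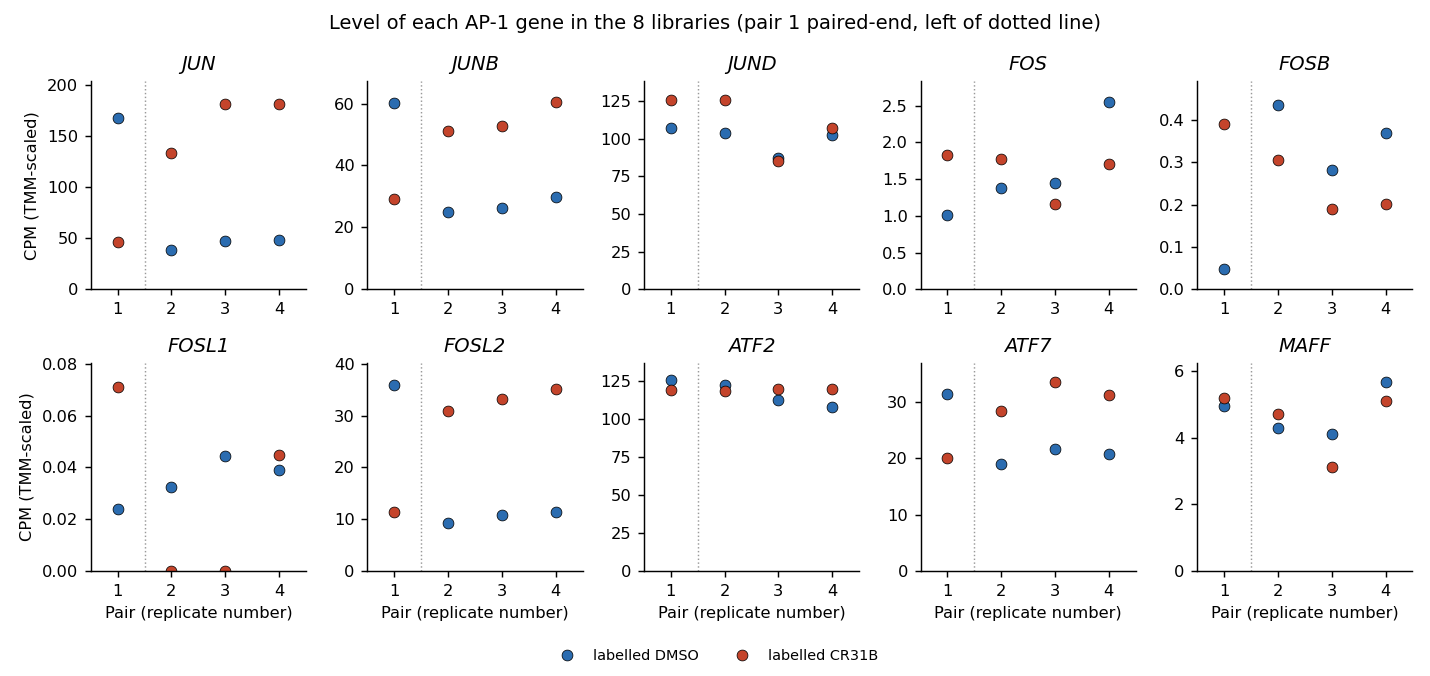
TMM-scaled CPM (vertical axes, each from 0) of the 10 genes in the 8 libraries, by pair number on the horizontal axis; red points are libraries labelled CR31B and blue points those labelled DMSO, 1 library each. For JUN, JUNB, FOSL2 and ATF7 the red points lie above the blue in pairs 2 to 4 and below it in pair 1.

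JUN (ENSG00000177606) encodes c-Jun, the founding AP-1 subunit and the main substrate of the JNK kinases. It is an intronless gene on chromosome 1 from 58780788 to 58784327, minus strand (GRCh38). The single-end libraries labelled CR31B had 133, 181 and 182 CPM and those labelled DMSO 38.3, 47.4 and 48.3 CPM. Every single-end CR31B library was thus above every single-end DMSO library, with means of 166 ± 27.9 and 44.7 ± 5.5 CPM (SD, n = 3 each). JUN had a fitted log2 fold change of 1.89 ± 0.12 (SE, edgeR adjusted p 2.64e-06). That rise ranked 20 among the 16696 genes tested. Pair 1 was the other way round, with 46.4 CPM under the CR31B label, inside the DMSO range of the other pairs, and 168 CPM under the DMSO label, inside their CR31B range. With all 8 libraries the fitted value of JUN was 1.12 ± 0.62 (SE, edgeR adjusted p 0.707).

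JUNB (ENSG00000171223) encodes a JUN paralogue that activates transcription more weakly and can hold back c-Jun. It is intronless too and lies on chromosome 19 from 12791496 to 12793315, plus strand. Its levels were 51.2, 52.7 and 60.5 CPM in the single-end CR31B libraries and 25.0, 26.4 and 29.7 CPM in the DMSO libraries. The groups did not overlap, and the 3 pairs differed by 0.9995 to 1.03 on the log2 scale. The JUNB fitted value was 1.02 ± 0.083 (SE, edgeR adjusted p 7.68e-06). Pair 1 was reversed, at 29.1 CPM under the CR31B label and 60.1 CPM under the DMSO label. Exons of HOOK2, on the other strand, cover 14.2% of the JUNB bases. HOOK2 had 13.3 CPM with CR31B and 10.5 CPM with DMSO in the single-end libraries, a log2 fold change of 0.34, and its part in the JUNB counts was not tested.

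JUND (ENSG00000130522), the JUN paralogue that is expressed steadily in many resting cells, lies on chromosome 19 from 18279760 to 18281622, minus strand. It had 126, 85.1 and 107 CPM in the single-end CR31B libraries and 104, 86.8 and 102 CPM in the DMSO libraries. The groups overlapped, and pair 1 had 125 CPM (CR31B) and 107 CPM (DMSO). JUND had a log2 fold change of 0.12 ± 0.12 (SE, edgeR adjusted p 0.464). It passed in the fit without CR31B replicate 3, at 0.26 with an adjusted p of 0.0353, and with GC and length offsets together with the replicate block, at 0.16 with an adjusted p of 0.0207 (edgeR).

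The bases before the annotated starts are shown because JUN, JUNB and FOSL2 moved together and JUND did not. RefSeq (GRCh38.p14) windows were present for 8 of the 10 genes. The 250 bases before each start were searched on both strands for the TRE (TGANTCA), for the CRE and the site type of the JUN promoter (TGACNTCA) and for the CArG box bound by SRF. A TRE and a TGACNTCA match cannot start at the same base. No window of these genes held a TRE or a CArG box, and 3 genes held TGACNTCA. Bases farther upstream were not searched, so these windows cannot show that a promoter lacks a site. Over all 35116 RefSeq windows 6.57% held a TRE, 6.87% held TGACNTCA and 1.16% held a CArG box. The matches, in capitals with their flanks, lay 67 to 60 bases before the start of JUN (chr1:58784096-58784125, minus strand), 200 to 193 bases before that of JUND (chr19:18281804-18281833, minus strand) and 54 to 47 bases before 1 of 2 starts of MAFF (chr22:38201929-38201958, plus strand). GENCODE release 29 places the starts of JUN and MAFF farther upstream, so there these bases lie within an annotated first exon.
JUN: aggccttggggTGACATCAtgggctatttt
JUND: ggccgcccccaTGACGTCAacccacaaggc
MAFF: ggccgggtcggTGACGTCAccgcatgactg

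Those matches belong to 1 gene that rose and 2 that did not pass. For 2 further genes that rose, the sequence before the start is given for JUNB (chr19:12791236-12791485, plus strand) and, up to the first GENCODE exon, for FOSL2 (chr2:28392608-28392801, plus strand). Neither holds a match, so no letters are in capitals, and G and C make up 70.8% of the bases in JUNB and 76.3% in FOSL2.
JUNB: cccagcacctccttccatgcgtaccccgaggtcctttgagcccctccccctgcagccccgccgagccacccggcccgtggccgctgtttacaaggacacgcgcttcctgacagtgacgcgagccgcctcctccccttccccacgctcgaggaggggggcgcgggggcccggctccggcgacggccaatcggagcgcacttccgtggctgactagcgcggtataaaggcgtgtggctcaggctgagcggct
FOSL2: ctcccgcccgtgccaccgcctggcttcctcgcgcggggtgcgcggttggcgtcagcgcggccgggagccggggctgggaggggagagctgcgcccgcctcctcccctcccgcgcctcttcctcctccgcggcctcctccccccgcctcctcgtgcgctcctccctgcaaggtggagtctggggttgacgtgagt

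Among the FOS genes FOSL2 (ENSG00000075426, chromosome 2, 28392448 to 28417312, plus strand) was the one that rose. It encodes FRA2, a FOS protein without the strong activation domain of c-Fos. Its levels were 30.9, 33.2 and 35.1 CPM in the single-end CR31B libraries and 9.3, 10.8 and 11.3 CPM in the DMSO libraries. No single-end CR31B library came near the single-end DMSO range, and the fitted log2 fold change of FOSL2 was 1.66 ± 0.087 (SE, edgeR adjusted p 7.81e-07). Pair 1 was reversed, with 11.4 CPM under the CR31B label and 35.9 CPM under the DMSO label, -1.66 in log2. With all 8 libraries the FOSL2 value was 0.94 ± 0.54 (SE, edgeR adjusted p 0.707).

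FOS (ENSG00000170345, chromosome 14, 75278774 to 75282230, plus strand), the archetypal early response gene, was low in every library. It had 1.77, 1.16 and 1.7 CPM in the single-end CR31B libraries, 1.37, 1.45 and 2.55 CPM in the DMSO libraries, and in pair 1 1.82 CPM (CR31B) and 1.01 CPM (DMSO). The groups overlapped, with 42 to 131 counts behind each value. FOS had a log2 fold change of -0.21 ± 0.26 (SE, edgeR adjusted p 0.565).

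FOSB (ENSG00000125740, chromosome 19, 45467995 to 45475179, plus strand), a paralogue known from neurons for its long-lived splice form, rested on 2 to 27 counts per library. In the single-end libraries it had 0.305, 0.19 and 0.202 CPM with CR31B and 0.437, 0.281 and 0.37 CPM with DMSO. The CR31B library was the lower in each of the 3 pairs, although the groups overlapped. The FOSB log2 fold change came to -0.63 ± 0.32 (SE, edgeR adjusted p 0.139). In pair 1 FOSB had 22 counts in the library labelled CR31B and 2 in the library labelled DMSO.

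FOSL1 (ENSG00000175592, chromosome 11, 65892049 to 65900573, minus strand), which encodes FRA1 and is known from mesenchymal and invasive cells, had 0, 0 and 2 counts with CR31B and 2, 3 and 2 with DMSO in pairs 2 to 4. Pair 1 had 4 counts in the library labelled CR31B and 1 in the library labelled DMSO. A count of 0 allows up to 3 counts, which is 0.0444 to 0.0719 CPM in these libraries (counting error only), so no difference in FOSL1 was detectable at this depth.

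**Figure D2:**
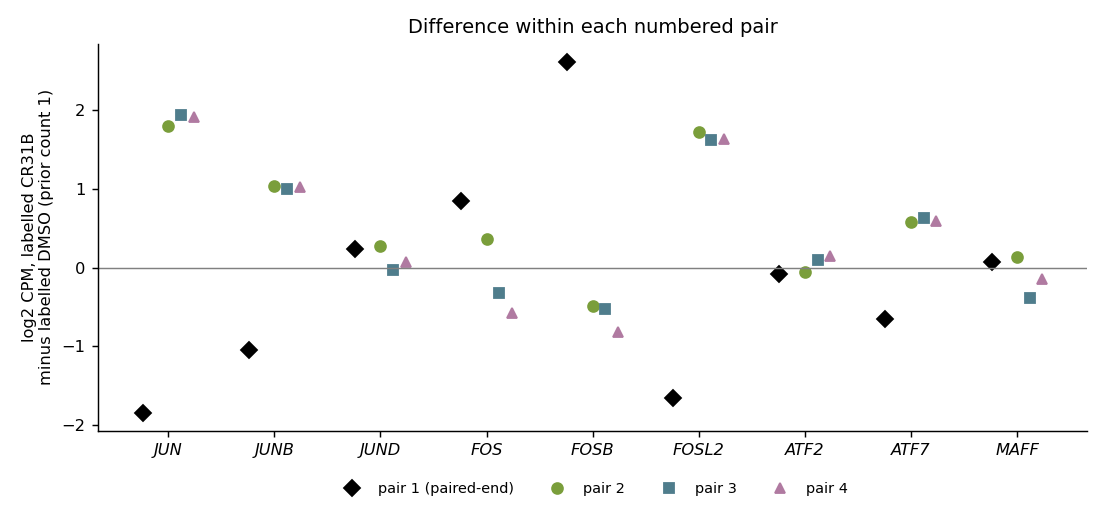
Difference in log2 CPM (prior count 1) between the library labelled CR31B and the library labelled DMSO of the same number, for 9 genes; 1 marker per pair, black diamonds for pair 1, FOSL1 left out for its low counts. Pairs 2 to 4 lie close together above 0 for JUN, JUNB, FOSL2 and ATF7, and pair 1 lies about as far below 0.

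ATF7 (ENSG00000170653, chromosome 12, 53507856 to 53626410, minus strand) and ATF2 encode related CRE-binding partners of JUN that p38 and JNK kinases phosphorylate. ATF7 had 28.3, 33.4 and 31.3 CPM in the single-end CR31B libraries and 18.9, 21.6 and 20.7 CPM in the DMSO libraries. The groups did not overlap, and the 3 pairs differed by 0.58, 0.63 and 0.59 on the log2 scale. The ATF7 fitted value was 0.61 ± 0.079 (SE, edgeR adjusted p 0.000178). Pair 1 had 19.99 CPM under the CR31B label and 31.4 CPM under the DMSO label. A transcript named AC023509.3 covers 18.2% of the ATF7 exonic bases on the same strand, and the 3 genes that share exonic bases with ATF7 had at most 0.0444 CPM. How reads that fit both genes were counted is not given in the sources used here.

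ATF2 (ENSG00000115966, chromosome 2, 175072250 to 175168382, minus strand) varied little. Its single-end libraries had 118, 120 and 120 CPM with CR31B and 123, 113 and 108 CPM with DMSO, and pair 1 had 120 CPM (CR31B) and 126 CPM (DMSO). The groups overlapped. ATF2 had a log2 fold change of 0.06 ± 0.056 (SE, edgeR adjusted p 0.404), which turned to -0.10 with GC and length offsets, -0.03 under upper quartile scaling and -0.02 under total counts, none past the threshold.

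MAFF (ENSG00000185022, chromosome 22, 38200767 to 38216511, plus strand) had 4.71, 3.12 and 5.11 CPM in the single-end CR31B libraries and 4.29, 4.1 and 5.67 CPM in the DMSO libraries. The groups overlapped, and pair 1 had 5.21 CPM (CR31B) and 4.96 CPM (DMSO). MAFF had a log2 fold change of -0.12 ± 0.19 (SE, edgeR adjusted p 0.653).

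Across the family the single-end groups did not overlap for 4 of 10 genes, each with CR31B above DMSO. Of all genes tested 27.7% were separated in that direction and 24.4% in the other. The test of whether pair 1 differed from pairs 2 to 4, an interaction of treatment with layout over the 8 libraries, passed for 5 of 9 members, against 42.5% of all 16518 genes. For JUN the difference in pair 1 was lower than that in pairs 2 to 4 by a fitted -3.74 ± 0.26 (log2, SE, edgeR adjusted p 3.12e-06). JUNB, FOSL2 and ATF7 were lower as well, which makes 4 members in that direction against 24.1% of all genes. FOSB was higher. With 1 library of each group in pair 1, the spread of this test is that of pairs 2 to 4, and pair 1 and its layout cannot be told apart.

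Per length, as CPM per kb of annotated exon, JUND was the most abundant member in the single-end DMSO libraries, at 52.4 ± 5.02 (SD, n = 3). ATF2 followed at 19.9 ± 1.33, then JUNB at 14.9 ± 1.33, JUN at 12.6 ± 1.56, ATF7 at 2.56 ± 0.17, FOSL2 at 1.46 ± 0.15, MAFF at 0.834 ± 0.15 and FOS at 0.553 ± 0.2, in the same unit and n. FOSB was at 0.0653 ± 0.014 and FOSL1 last. In this order only MAFF and FOS overlapped with their neighbour over the 3 libraries. With CR31B JUN stood second at 46.8 ± 7.87 CPM per kb, and its range of 37.7 to 51.4 overlapped the JUND range of 45.7 to 67.6. JUNB, at 30.1 ± 2.74 CPM per kb, lay above ATF2, at 20.8 ± 0.15, the reverse of the DMSO libraries. FOSL2 likewise lay above ATF7, at 4.62 ± 0.3 against 3.89 ± 0.32 CPM per kb. Such levels depend on the length used. With the longest transcript in place of all exons, the single-end DMSO mean of FOS was 0.83 and that of MAFF 1.43 CPM per kb. Those of ATF2 and ATF7 were 27.4 and 3.05 CPM per kb. The order of JUNB against ATF2 and of FOSL2 against ATF7 with CR31B is that for all exons only.

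**Figure D3:**
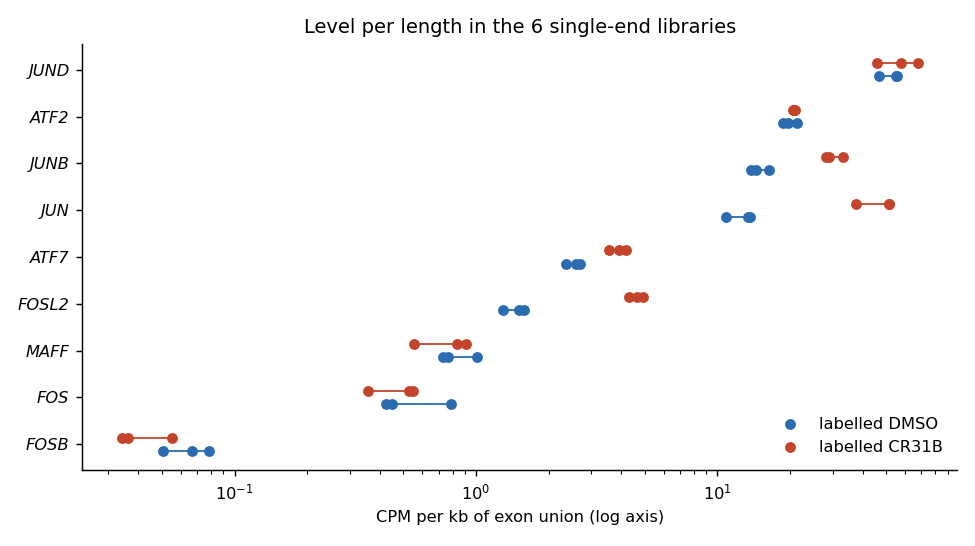
CPM per kb of exon union (horizontal log axis) of 9 genes in the 6 single-end libraries, in the order of the DMSO means; points are libraries, bars their range, red labelled CR31B and blue labelled DMSO, FOSL1 left out for its low counts. JUN moves from 12.6 to 46.8 CPM per kb, into the range of JUND, while JUND and ATF2 stay within overlapping ranges.

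The makeup of each group followed from these levels. JUN, JUNB and JUND together came to 79.9 ± 5.2 CPM per kb in the single-end DMSO libraries and 134 ± 8.06 in the CR31B libraries (SD, n = 3). JUN was 13.5% to 18.0% of that sum with DMSO and 28.2% to 40.7% with CR31B, and JUND 62.6% to 69.4% and 36.3% to 50.6%, so neither pair of ranges overlapped. The sum of FOS, FOSB, FOSL1 and FOSL2 was 2.1 ± 0.33 CPM per kb with DMSO and 5.14 ± 0.31 with CR31B. FOSL2 made up 64.4% to 74.2% of it with DMSO and 87.8% to 92.2% with CR31B. In both groups of libraries the JUN genes thus had far more counts per length than the FOS genes.

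**Figure D4:**
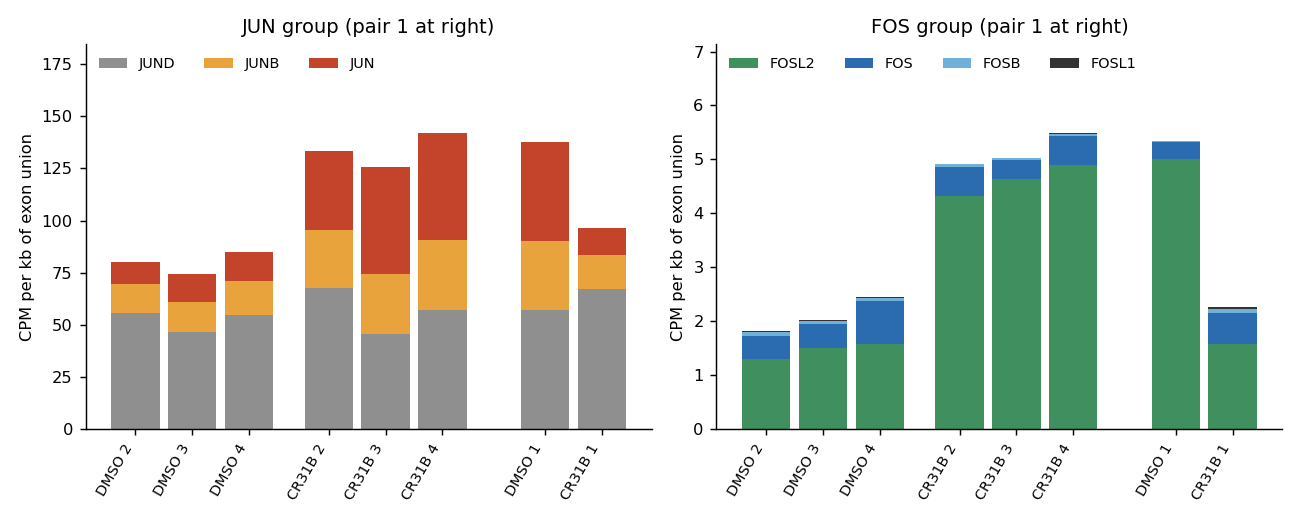
Stacked CPM per kb of exon union of the JUN genes (left) and FOS genes (right), 1 bar per library, with the single-end libraries first and pair 1 at the right of each panel. The bars labelled CR31B 2 to 4 sum to 126 to 142 for the JUN genes, against 74.5 to 84.8 for DMSO 2 to 4.

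Among 19 other bZIP genes that can pair or compete with AP-1 proteins, 16 were tested in the single-end libraries, 10 rose, none fell and 6 did not pass. Their median log2 fold change was 0.50, against -0.01 over all genes tested, of which 23.8% rose and 17.6% fell. BACH2, a repressor known from B cells, went from 3.59 to 11.01 CPM (log2 fold change 1.61 ± 0.18). ATF3, a stress-induced repressor, went from 7.65 to 17.4 CPM (1.19 ± 0.11), and JDP2, a repressor that dimerizes with JUN, from 7.53 to 15.3 CPM (1.02 ± 0.13). All 3 were reversed in pair 1, at log2 differences of -1.70, -1.03 and -0.92.

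Of 27 kinases of the MAP kinase cascades, all were tested, 10 rose, 4 fell and 13 did not pass. Their median log2 fold change was 0.01, and of all genes tested 23.8% rose and 17.6% fell. MAPK14, which encodes p38 alpha, went from 55.5 to 98.8 CPM (0.83 ± 0.046), RPS6KA5, a p38 and ERK target kinase, from 8.59 to 15.2 CPM (0.83 ± 0.16), and MAP3K5, the stress kinase ASK1, from 2.75 to 4.35 CPM (0.66 ± 0.13). MAPK8, which encodes JNK1, fell from 184 to 157 CPM (-0.23 ± 0.051), and MAP3K13 (-0.22), RPS6KA2 (-0.22) and MAP2K7 (-0.21) were the others that fell, MAP2K7 being named after its value was seen. MAP3K13 did not pass without CR31B replicate 4 or DMSO replicate 2 (adjusted p 0.0604 and 0.0562), and RPS6KA2 without CR31B replicates 2 or 4 or DMSO replicates 3 or 4 (adjusted p 0.099, 0.138, 0.11 and 0.137, edgeR). With the replicate block 8540 of all 16696 genes tested passed, against 6901 without it. Of the kinases 18 passed with the block, MAP2K6, MAP2K4, MAPK3 and MAP3K1 being added (adjusted p 1.5e-05, 0.00421, 0.0267 and 0.0219, edgeR). These 4 were named after their values were seen. Without the block their log2 fold changes were -0.47, -0.19, -0.16 and 0.16. Pair 1 ran the other way for MAPK14, RPS6KA5 and MAP3K5, at log2 differences of -0.97, -0.58 and -0.80. It also did for MAPK8, MAP3K13, RPS6KA2 and MAP2K7, at 0.27, 0.21, 0.17 and 0.31. All values of these kinases are mRNA levels and carry no measure of kinase activity.

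Of 14 factors and coactivators known on the FOS and JUN promoters 13 were tested, 6 rose, 2 fell and 5 did not pass. Their median log2 fold change was 0.17, beside 23.8% of all genes tested that rose and 17.6% that fell. EP300, a histone acetyltransferase and coactivator, went from 131 to 421 CPM (1.68 ± 0.071), and MEF2D and MEF2A, which bind the JUN promoter, from 48.0 to 85.1 CPM and from 78.3 to 121 CPM. SRF, the factor of the FOS serum response element, had 79.1 CPM with CR31B and 76.5 CPM with DMSO and did not pass. ELK4 (-0.20) and CRTC3 (-0.16) fell. EP300, MEF2D and MEF2A had pair 1 log2 differences of -1.68, -0.86 and -0.58, and ELK4 and CRTC3 of 0.21 and 0.13. ELK4 lost its call without CR31B replicates 2 or 4 or DMSO replicates 3 or 4 (adjusted p 0.0851, 0.0578, 0.0528 and 0.125), and CRTC3 without CR31B replicates 3 or 4 or any of DMSO replicates 2, 3 and 4 (adjusted p 0.0868, 0.111, 0.106, 0.0602 and 0.0992, edgeR).

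Of 11 genes listed for turnover, parts of ubiquitin ligases and binders of AU-rich early mRNAs, all were tested. Among them 5 rose, none fell and 6 did not pass, with a median log2 fold change of 0.24. The shares over all genes tested were 23.8% higher and 17.6% lower. FBXW7, whose ligase marks c-Jun for degradation, went from 39.1 to 61.2 CPM (0.65 ± 0.063). DCAF1 and HNRNPD rose by 0.55 and 0.40, and ITCH and ZFP36L2, named after their values were seen, by 0.24 and 0.33. Log2 differences in pair 1 were -0.67 for FBXW7, -0.63 for DCAF1, -0.41 for HNRNPD, -0.25 for ITCH and -0.42 for ZFP36L2.

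Of 22 genes that textbooks give as carrying AP-1 sites 16 were tested, 4 rose, 2 fell and 10 did not pass. Their median log2 fold change was 0.06, and over all genes tested 23.8% rose and 17.6% fell. HRK, a BH3-only death gene induced by JNK and JUN in neurons, went from 5.09 to 15.8 CPM (1.64 ± 0.11) and VEGFA, an angiogenic factor, from 22.1 to 56.7 CPM (1.36 ± 0.13). DUSP1, a MAP kinase phosphatase, rose by 0.42. PLAUR, the urokinase receptor, fell by 0.40 and BCL2L11, which encodes BIM, by 0.33. Log2 differences in pair 1 were -1.54 for HRK, -1.26 for VEGFA, -0.35 for DUSP1, 0.44 for PLAUR and 0.41 for BCL2L11. CCND1, with 1132 CPM (CR31B) and 1086 CPM (DMSO), did not pass, and MMP1, MMP3, MMP9, MMP10, IL6 and CXCL8 were too low to be tested.

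**Figure D5:**
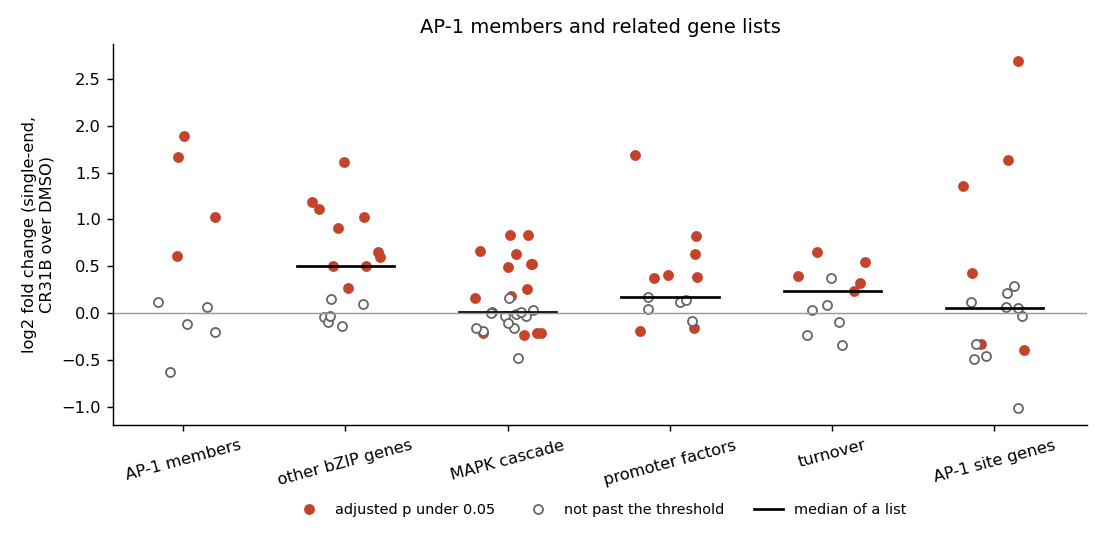
Fitted log2 fold change (CR31B over DMSO, single-end libraries) of the 9 tested members and of the tested genes of 5 related lists; filled red points passed an adjusted p of 0.05, open points did not, and horizontal bars are list medians (not drawn for the members). The other bZIP genes have a median of 0.50 and no red point below 0, while the MAP kinase list lies on both sides of 0.

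The genes most like JUN over the 8 libraries, by Pearson correlation of log2 CPM among 10297 protein-coding genes with at least 5 CPM on average, were N4BP2L2, KBTBD6, PICALM, UPF2 and SLC6A9, each at an r of 0.998. Their log2 fold changes in the single-end libraries were 0.72, 1.07, 0.55, 0.64 and 1.88. JUN levels fall into a high and a low set of 4 libraries, so these r mostly restate that split. For FOS the most alike of 10298 genes were PITPNM1 (0.929), HDGF (0.895), SLC20A2 (0.894), RAB11FIP4 (0.89) and SRP19 (0.886), at log2 fold changes between -0.12 and 0.00. The FOS values rest on 42 to 131 counts per library.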

How the data were processed

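The authors deposited raw counts, not normalized, in 1 table with a row per Ensembl gene and a column per library. The submitters' processing notes name FastQC 0.11.7, STAR 2.7.2b, edgeR 3.36.0, limma 3.50.3 and the build GRCh38, with no roles. The counting tool and annotation are not given in the sources used here. The only hint of a strand setting is the word reverse in the name of the deposited counts. Columns were matched to libraries by name; that of CR31B replicate 4 lacks its first letter. Per the labels' protocols, 250 ng of RNA and 15 PCR cycles were used and a small RNA kit is named. No molecular identifiers are described, so depth covers counting error only.

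Genes were named from GENCODE release 29 (58515 of 58787 identifiers matched). After filterByExpr and TMM scaling, tests were two-sided quasi-likelihood tests of edgeR 4.0.16 (glmQLFit, glmQLFTest; R 4.3.3), with Benjamini-Hochberg adjustment over all tested genes: for 8 libraries with layout as a covariate, for the 6 single-end libraries, and for the interaction of treatment and layout. Standard errors are the log2 fold change over the square root of F. Differences between paired libraries used log2 CPM with a prior count of 1. The scripts were tested on simulated counts.

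The members, the 5 related lists (93 genes, all matched) and the motifs were chosen with earlier results of these data known. All 10 members are named, as are the 5 genes most like JUN and FOS, and from each list up to 3 called genes per direction with at least 1 CPM and the largest change. One listed gene is counted but not reported here by name. Same-numbered single-end libraries deviated together from their group means (r of 0.206, 0.384 and 0.157 across genes in pairs 2, 3 and 4). Each value above 0.1 was taken as pairing. The main single-end fit had no term for pairing, so its SE and adjusted p are unpaired, and only the replicate block uses it. The smallest mean chi-square per gene between 2 libraries was 7.16, where 1 marks sampling noise alone, so none was a duplicate. Alternatives were other scalings and filters, DESeq2 1.42.0, limma voom 3.58.1, GC and length offsets, a replicate block and leaving out libraries.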

Additional observations from a re-analysis of the deposited data

Results flagged for a closer look

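In 3 of 19 groups of 4 libraries examined, 1 library stood far from the others of its labelled group, measured as the share of the group range that its gap to the next value takes up and set against the 95% limit of Dixon, which chance passes in about 1 of 20 groups. The ratio was 0.923 for JUN, 0.866 for JUNB and 0.924 for FOSL2, each in the libraries labelled DMSO, and in each the distant library was replicate 1. These results share the same libraries.

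The difference between the groups itself differed between pair 1 and pairs 2 to 4 for 5 members (edgeR interaction of treatment and layout, adjusted over all genes tested). On the log2 scale the difference in pair 1 minus that in pairs 2 to 4 was -3.74 for JUN, -2.07 for JUNB, -3.32 for FOSL2 and -1.26 for ATF7, with adjusted p of 3.12e-06, 7.65e-06, 9.1e-07 and 0.000148. It was 3.6 for FOSB, with an adjusted p of 0.00665 at 2 to 27 counts per library.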

How the results depend on the processing

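With all 8 libraries as labelled, no scaling, filter or other tool that was run gave a member past the threshold (0), nor did the replicate block, and leaving out libraries or pairs gave 0 to 4. The count of 4 (JUN, JUNB, FOSL2 and ATF7) came without CR31B replicate 1, without DMSO replicate 1 and without both, where JUN had a log2 fold change of 1.89, JUNB of 1.02, FOSL2 of 1.66 and ATF7 of 0.61. In the single-end libraries 4 or 5 members passed under every alternative, the fifth being JUND. Leaving out each library gave JUN 1.79 to 2.03, JUNB 0.947 to 1.1, FOSL2 1.58 to 1.73 and ATF7 0.549 to 0.671, all past the threshold. With the replicate block alone these 4 were called and no other member was, with JUN at 1.89 ± 0.044 (SE), and no named gene of the lists lost its call. The block added MAP2K6, MAP2K4, MAPK3 and MAP3K1 to the kinases called. It also added ELK3 to the promoter factors (9 called), ZFP36L1 to the turnover genes (6) and SPP1 to the genes with AP-1 sites (7). Over all 16696 genes tested the block called 8540, against 6901 without it. The interaction was called for 5 members under each scaling and with limma voom, although upper quartile scaling moved the median of all genes in it from 0.02 to 0.23 and total counts to 0.19. GC and length offsets left the 4 calls in place, with ATF7 at 0.50 when the block was added. Depth limits FOSL1 and FOSB, and FOS in part.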
